A study of Mus musculus with 31 samples.

Results

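These data describe how the mRNA of ISR-competent mouse squamous cell carcinoma (SCC) cells changed under bortezomib. They cover 8 of the 31 libraries of the series used here, all of total RNA: 4 from S51 cells treated with 100 nM bortezomib and 4 from S51 cells given the DMSO vehicle, both for 4.5 h by the labels, while the study's text gives a slightly shorter time. The SCC cells carry the genotype HRasG12V:TgfbrIIfl/fl_S51_Myctag, that is, an activated Hras allele with the G12V change and a floxed Tgfbr2 by the labels, while the study's list of lines gives Tgfbr2 as deleted (D/D), and they come from a skin tumor line of clonal origin. Both groups share an engineered Eif2s1, the gene of eIF2α: the endogenous alleles were disrupted with Cas9, and a myc-tagged cDNA with an intact serine 51 was supplied by a lentivirus under the PGK promoter. Clones of 1 genotype were pooled. The S51A cells carry the same replacement with serine 51 changed to alanine, which the eIF2α kinases cannot phosphorylate. They were treated in the same way (4 vehicle and 4 bortezomib libraries). They served for the test of differences, and their libraries also entered the filter on low counts and the estimate of spread. All 11708 genes that passed this filter over the 16 libraries, of 24593 in the table, were members. With the S51 libraries alone, 11316 genes passed.

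The labels of 16 samples of the series, the 4 S51 bortezomib libraries of total RNA among them, were exchanged in a dated note of the submitters, and the number inside a title can therefore differ from the number of its count column. Groups follow the exchanged labels, and the columns were matched to samples by that note and not by the number. Depth was even, with 18993181 to 22994713 counts per vehicle library and 20870661 to 22290040 per bortezomib library. Replicates resembled each other more than they resembled the other group: log2 CPM, the counts of a gene scaled to the size of its library, correlated across genes at 0.994 to 0.996 over the 12 pairs within groups and at 0.981 to 0.982 over the 16 pairs between groups. The study calls its replicates independent in one place and technical in another, so the p-values measure the spread between these libraries, which may be technical. The keratinocyte identity of the cells was visible in both groups, since all 10 keratinocyte markers of a list passed the filter and summed to 12500 to 13100 CPM under vehicle and 15300 to 17700 under bortezomib. Krt5 (3650 to 6310 CPM over the 8 libraries) and Krt14 (4780 to 7260 CPM) made up most of these sums. With bortezomib, 6 of the 10 markers had a higher fitted level and 4 a lower one. The marker lists of fibroblasts, leukocytes, endothelial cells and melanocytes each summed to at most 6.02 CPM in any library, with Pdgfra at 2.69 to 3.58 CPM under vehicle and Cd68 at 3.27 to 4.04.

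Bortezomib is a boronate that blocks the chymotrypsin-like site of the proteasome, the protease that degrades ubiquitin-tagged proteins. When it is blocked, damaged and short-lived proteins build up. Cells are known to answer with the heat shock factor HSF1, which switches on cytosolic chaperones, with NRF1, which restores proteasome subunits, with NRF2, which drives antioxidant enzymes, and with the unfolded protein response of the endoplasmic reticulum. The integrated stress response (ISR) is the branch in which a kinase phosphorylates eIF2α at serine 51; overall translation then falls, while mRNAs of factors such as ATF4 are translated better. Short-lived transcription factors that the proteasome normally removes, such as p53, can also accumulate. The comparison asked which of these programs were visible at the level of mRNA.

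Of the 11708 genes tested, 230 were higher and 354 lower with bortezomib by an edgeR quasi-likelihood test with a Benjamini-Hochberg adjusted p under 0.05 and a fold change above 2, which is 1.96% and 3.02% of the genes and 4.99% together. Genes that passed both criteria are described as having risen or fallen. The changes upward were fewer but larger: 43 of the genes that rose changed more than 4-fold and 10 more than 8-fold, against 22 and 2 of those that fell. The split depended on scaling. With TMM factors, used here, which were 1.04 to 1.05 for vehicle and 0.931 to 0.943 for bortezomib libraries, the median log2 fold change of all genes was -0.0070, whereas unscaled libraries gave -0.161 and calls of 161 higher and 578 lower. The 230 genes that rose took 1.40% to 1.54% of all counts under vehicle and 3.65% to 3.99% under bortezomib, and the 354 that fell took 0.657% to 0.694% and then 0.229% to 0.244%. By the adjusted p alone, 3475 genes were higher (29.7%) and 3530 lower (30.2%), or 59.8% of those tested, so small shifts were the rule and a change under 2-fold is reported as a value. Of the members named here, 16 with log2 fold changes from 1.01 to 1.15 fell short of 2-fold with library sizes alone. In 53.8% of all genes tested the 4 libraries of one group did not overlap those of the other.

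**Figure D1:**
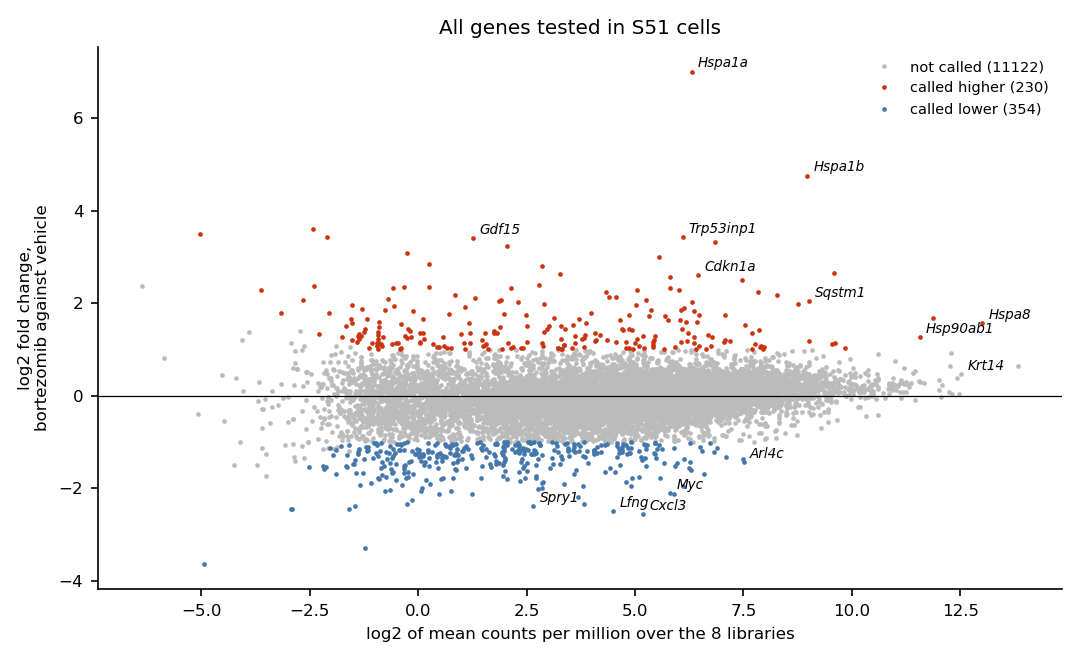
Each dot is 1 of the genes tested in S51 cells, with the log2 of its mean CPM over the 8 libraries on the x axis and the log2 fold change of bortezomib against vehicle on the y axis; 2 genes without a count in these libraries are not drawn. Red dots rose (230 genes) and blue dots fell (354), and Hspa1a at 7.01 and Hspa1b at 4.76 stand above all other genes.

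Cytosolic chaperones held the 2 largest increases among genes at 1 CPM or more. The inducible HSP70 genes Hspa1a and Hspa1b lie next to each other on chromosome 17 and encode nearly the same protein, the ATP-driven chaperone that binds unfolded stretches. Hspa1a was at 1.41, 1.02, 0.918 and 1.51 CPM in the 4 vehicle libraries and at 159.7, 136, 177 and 156 CPM in the 4 bortezomib libraries, 129-fold higher (log2 fold change 7.01, SE 0.10, adjusted p = 9.20e-25). Hspa1b went from 34.5, 33.8, 35.7 and 38.9 CPM to 881, 1003, 922 and 1078 CPM, or 27.1-fold (log2 fold change 4.76, SE 0.089, adjusted p = 8.40e-23). In both genes every treated library was far above every control, but reads that fit either copy cannot be assigned, so the division between the 2 is uncertain while the increase of the pair is not. Another neighbour, Hspa1l, the testis-enriched relative, fell from 1.86, 2.55, 3.08 and 1.93 CPM to 1.06, 0.964, 1.22 and 1.23 CPM (log2 fold change -1.07, SE 0.20, adjusted p = 4.52e-05), a low-level change that shares the same uncertainty and came to -0.92 without vehicle replicate 3.

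Stretches of promoter are shown for Hspa1a, Hspa1b and Hsph1, the 3 members with the largest increases in the HSP70 and HSP110 list, because their letters hold the 2-unit form of the heat shock element, the site that HSF1 binds. They come from RefSeq (GRCm38.p6, the assembly also called mm10) and run 5′ to 3′ on the minus strand over the 130 bases before the start site, at chr17:34972157-34972286, chr17:34959239-34959368 and chr5:149636337-149636466. Capitals mark matches to GAANNTTC or TTCNNGAA.
Hspa1a: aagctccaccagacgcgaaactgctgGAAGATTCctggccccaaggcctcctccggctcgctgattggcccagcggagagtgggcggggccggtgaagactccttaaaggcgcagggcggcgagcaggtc
Hspa1b: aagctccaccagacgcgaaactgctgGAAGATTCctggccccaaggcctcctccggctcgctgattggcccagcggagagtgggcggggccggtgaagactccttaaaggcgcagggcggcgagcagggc
Hsph1: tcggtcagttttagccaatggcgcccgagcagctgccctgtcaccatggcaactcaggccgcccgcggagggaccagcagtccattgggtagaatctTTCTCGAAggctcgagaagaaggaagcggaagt
The Hspa1a and Hspa1b stretches were identical at 129 of 130 bases, and their match began 104 bases before the start. Either 2-unit form occurred, on either strand, in 21.7% of the 184 genes that rose and had a RefSeq promoter window of 300 bases, in 14.3% of 266 that fell, and in 13.8% of all 9418 tested genes with a window. The longer 3-unit form, GAANNTTC followed by any 2 bases and GAA, occurred in 2.17%, 0.376% and 0.563% of them. It was found in 4 genes that rose, among them Hsph1, Chordc1 and Nploc4.

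**Figure D2:**
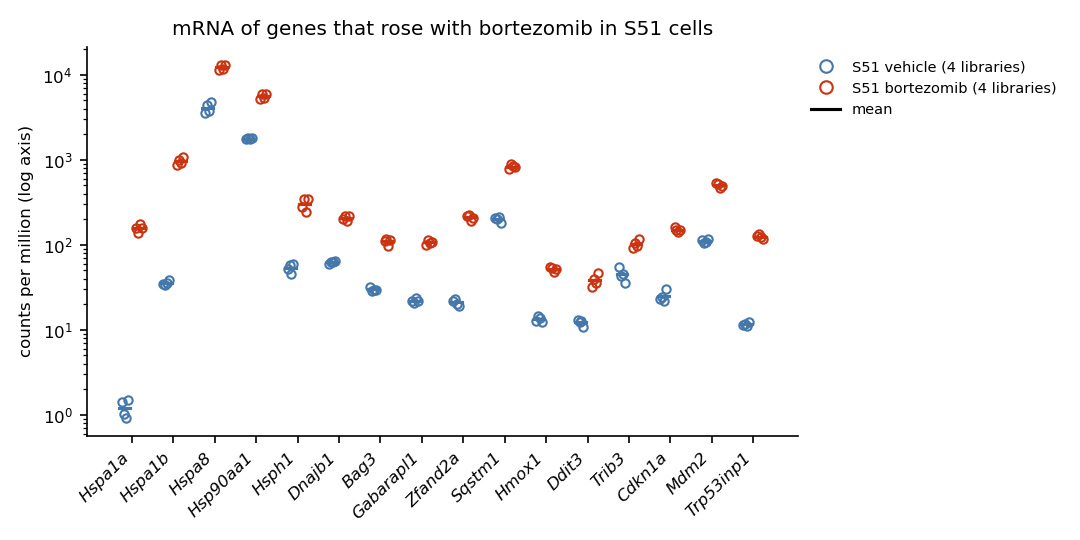
CPM on a log axis for 16 genes that rose in S51 cells; open circles are the 4 vehicle (blue) and 4 bortezomib (red) libraries and bars are group means. In every gene shown the lowest bortezomib library lies above the highest vehicle library, from Trib3, with 1.19 on the log2 scale, to Hspa1a, with 7.01.

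Over the whole list of HSP70 and HSP110 chaperones, 4 of 12 tested members rose, 1 fell and 7 did neither, with a median log2 fold change of 0.68. Hspa8, the constitutive HSC70, received the most reads of the list. It went from 3564, 4374, 3738 and 4847 CPM to 11338, 12928, 11698 and 13206 CPM (log2 fold change 1.57, SE 0.094, adjusted p = 5.04e-13), so that this 1 gene took 1.07% to 1.24% of all counts in the treated libraries. Hsph1, the HSP110 that helps HSP70 release its clients, went from 51.4, 57.7, 45.1 and 60.1 CPM to 281, 342, 242 and 346 CPM (log2 fold change 2.497, SE 0.14, adjusted p = 1.03e-13). Hspa5, the ER member of the family known as BiP, is described with the ER genes.

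The cofactors that steer HSP70 changed in part. Of 37 J-domain proteins, which bring substrates to HSP70 and start its ATP cycle, 5 rose and none fell, and the median was 0.085, which turned to -0.069 with library sizes alone. Dnaja1 went from 165, 182, 167 and 186 CPM to 629, 747, 636 and 773 CPM (1.99 on the log2 scale) and Dnajb1, the partner of inducible HSP70, from 59.4, 62.1, 63.5 and 64.2 CPM to 201, 220.5, 193 and 220.1 CPM (1.74). Dnaja4, Dnajb2 and Dnajb4 also rose, with log2 fold changes of 1.51, 1.44 and 1.27. The lowest member, Dnajc12, was at 0.413 to 0.557 CPM under vehicle and 0.0964 to 0.486 CPM under bortezomib, with adjusted p = 0.059, and passed the test, at -1.40, without bortezomib replicate 3. Among 11 small heat shock proteins and BAG cochaperones, 4 rose and none fell. These were Bag3, which links HSP70 to small heat shock proteins and to selective autophagy (31.6, 28.7, 29.2 and 29.8 CPM to 110.0, 118, 98.1 and 115 CPM, 1.89 on the log2 scale), and the small holdase chaperones Hspb8 (1.73), Cryab (1.14) and Hspb1 (1.04, and 0.95 without bortezomib replicate 2). Bag5 lay at the other end with -0.41.

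HSP90, the chaperone of kinases and hormone receptors, rose in both cytosolic genes. The stress-inducible Hsp90aa1 went from 1752, 1805, 1751 and 1801 CPM to 5274, 6004, 5417 and 5975 CPM (log2 fold change 1.67, SE 0.061, adjusted p = 4.87e-17) and the constitutive Hsp90ab1 from 1775, 1743, 1716 and 1848 CPM to 4091, 4527, 4144 and 4371 CPM (1.27 on the log2 scale). No library of one group reached the other. Together with the HSP90 cochaperone Chordc1 (1.05), Ahsa2, a relative of the HSP90 ATPase activator Aha1 (1.73), and the heat shock factor gene Hsf2 (1.06) they made up the 5 of 23 members that rose. Hsf1 itself was at 73.2 to 76.8 CPM and 63.3 to 73.7 CPM, with overlapping groups and a log2 fold change of -0.087 (adjusted p = 0.094). The ubiquitin ligase Stub1, which marks chaperone clients for degradation, lay lowest at -0.21. The chaperonins TRiC and HSP60, folding chambers for cytosolic and mitochondrial proteins, showed a smaller shift: none of 11 passed 2-fold, 10 were higher by the adjusted p alone, and the median was 0.45. Hspd1, the mitochondrial HSP60, had the largest value (1455 to 1574 CPM to 2421 to 2648 CPM, 0.75), and Pdcl3, a TRiC cofactor, the lowest (-0.049).

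Genes of the ER folding machinery shifted together but mostly under 2-fold. Of 36 tested, 3 rose and none fell, and 25 were higher and 1 lower by the adjusted p alone. Hspa5 was at 431, 501, 399 and 559.7 CPM in vehicle libraries and 915, 986, 963 and 1243 CPM in bortezomib libraries (log2 fold change 1.12, SE 0.16, adjusted p = 1.44e-06). Xbp1, the factor whose spliced form drives ER folding and degradation genes, went from 44.0, 50.4, 46.7 and 61.4 CPM to 102, 109, 110.0 and 127 CPM (1.14 on the log2 scale). Derl3, a channel component of ER-associated degradation, was barely detected (0.126 to 0.403 CPM and 0.302 to 0.923 CPM) and its groups overlapped, although it passed the test (1.22, adjusted p = 0.021). It lost the call, at 0.84 to 1.13, without vehicle replicate 3 or 4 or bortezomib replicate 3. Canx, the lectin chaperone with the most reads of the list, had 0.57, and Edem2, which trims mannose from misfolded glycoproteins, -0.41. The promoters of Hspa5 and Derl3 are shown because only these 2 of the 184 genes that rose held the ER stress element, CCAAT, 9 bases of any kind and CCACG, against 14 of all 9418 (0.149%). This motif was chosen after the values were seen. Both stretches are on the plus strand, chr2:34772009-34772059 and chr10:75893226-75893276, with the match in capitals.
Hspa5: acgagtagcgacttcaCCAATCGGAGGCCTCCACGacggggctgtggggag
Derl3: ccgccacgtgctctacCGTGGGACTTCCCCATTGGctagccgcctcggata

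Genes around ubiquitin rose in part, while most genes of the proteasome list were higher by less than 2-fold. Ubb, a polyubiquitin gene, was at 328, 316, 319 and 301 CPM and then at 652, 758, 716 and 763 CPM (log2 fold change 1.19, SE 0.061, adjusted p = 2.60e-14). Rps27a, in which ubiquitin is fused to a ribosomal protein, had 0.18. Zfand2a, the arsenite-inducible AN1 zinc finger protein that associates with the proteasome, went from 22.0, 22.9, 20.2 and 18.9 CPM to 216, 226, 193 and 205 CPM (log2 fold change 3.32, SE 0.058, adjusted p = 2.86e-23), and its relative Zfand5, an activator of the 26S proteasome, had 1.36 on the same scale. Ufd1 (1.06) and Nploc4 (1.07), the pair that recruits ubiquitinated clients to the segregase VCP, rose too, and Vcp, at 354 to 375 CPM and 678 to 763 CPM, came to 0.99, just under 2-fold, or to 1.01 and 1.02 without vehicle replicate 4 or bortezomib replicate 1. In all, 6 of 28 genes of this list rose and none fell. Zfand1 was lowest at -0.33.

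None of 49 proteasome subunits, activators and assembly factors passed 2-fold, but 38 were higher and 4 lower by the adjusted p alone, and the median log2 fold change of 0.49 (0.338 with library sizes alone) stood beside -0.0070 for all genes. The highest member was Psmd1, a scaffold of the 19S particle, which went from 236, 240.2, 233 and 247 CPM to 423, 456, 470.4 and 447 CPM (log2 fold change 0.91, SE 0.033, adjusted p = 4.88e-17), and Psmd2, with the most reads of the list, had 0.74. Psmg2, an assembly chaperone of the core particle, was the lowest, at 46.5 to 51.9 CPM under vehicle and 31.4 to 33.6 CPM under bortezomib (-0.59). Together these genes took 0.729% to 0.758% of all counts in the vehicle libraries and 0.957% to 0.993% in the bortezomib libraries. The list of the NRF1 gene and its processing (5 members) had none past 2-fold. Nfe2l1, the NRF1 gene, was at 117 to 134 CPM and 133 to 139.9 CPM with overlapping groups (0.16), Vcp, which extracts NRF1 from the ER, was highest, and Ngly1, which removes its glycans, was lowest at -0.43.

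**Figure D3:**
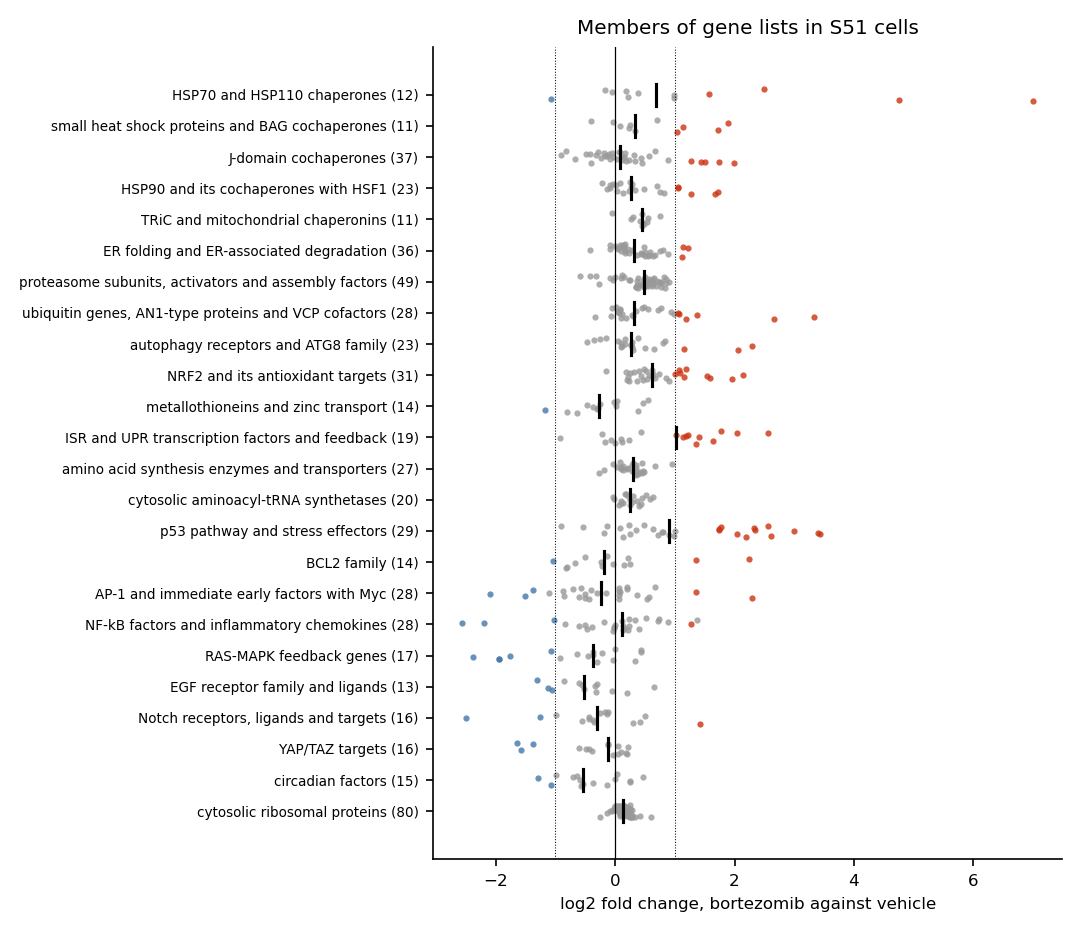
Log2 fold change of bortezomib against vehicle in S51 cells (x axis) for every tested member of 24 gene lists, with the number tested in parentheses; red members rose, blue fell, grey did neither, black bars are medians and dotted lines mark 2-fold. Members of the proteasome list run from -0.59 to 0.91 with a median of 0.49, whereas the ISR and p53 lists spread to the right with medians of 1.02 and 0.90.

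Autophagy receptors and the ATG8 family, which carry aggregates to the lysosome, contained 3 genes that rose among 23 and none that fell. Sqstm1 (p62), the receptor that gathers ubiquitinated proteins, went from 205, 199, 213 and 182 CPM to 783, 886, 836 and 816 CPM (log2 fold change 2.05, SE 0.061, adjusted p = 1.02e-18). Gabarapl1, an ATG8 homolog on autophagosome membranes, went from 21.7, 20.9, 23.7 and 21.7 CPM to 101, 115, 106 and 107 CPM (2.28 on the log2 scale). The receptor gene Optn passed the test at 1.16, but at 0.0837 to 0.413 CPM and 0.358 to 0.626 CPM its groups overlapped, and it lost the call, at 0.86 to 1.08, without vehicle replicate 1 or 4 or bortezomib replicate 1 or 2. Ulk2, an initiating kinase, was the lowest with -0.48.

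NRF2 and its antioxidant targets had the highest share of members above vehicle by the adjusted p alone among the lists: 9 of 31 rose, none fell, and 29 were higher by the adjusted p alone (median 0.61, 0.459 with library sizes alone). Osgin1, an oxidative stress growth inhibitor, went from 9.87, 7.84, 8.72 and 8.62 CPM to 38.1, 40.1, 37.2 and 39.6 CPM (log2 fold change 2.15, SE 0.11, adjusted p = 4.12e-14). Hmox1, the heme oxygenase, went from 12.7, 14.3, 13.8 and 12.5 CPM to 54.5, 53.1, 47.9 and 51.3 CPM (1.95). Both groups were tight and far apart. Gclm, the modifier subunit of the first enzyme of glutathione synthesis, had 1.59 on the log2 scale, Srxn1, which repairs peroxiredoxins, 1.54, and Txnrd1, the thioredoxin reductase with 466 to 492 CPM before and 1039 to 1126 CPM after, 1.15. The NADPH-producing enzymes Me1 (1.08) and Pgd (1.01) and the biliverdin reductase Blvrb (1.07) rose just past 2-fold, with Pgd just under it, at 0.998 to 0.9999, without vehicle replicate 1 or 3 or bortezomib replicate 3. Trib3, a pseudokinase described with the ISR genes and not an antioxidant enzyme, was among the 9 counted here (1.19). Ftl1, the ferritin light chain, had 0.24, Cbr1 was lowest at -0.15 with overlapping groups, and Nfe2l2, the NRF2 gene, had 0.23. The short core of the antioxidant response element, TGACNNNGC on either strand, stood in 44.0% of the 25 tested list members with a promoter window. It stood in 21.7% of genes that rose, 15.8% of those that fell and 17.1% of all. Of the list members that held it, Gclm, Me1, Pgd, Srxn1 and Txnrd1 rose. G6pdx, Maff, Mafg, Mafk, Nfe2l2 and Prdx1 did not, and Osgin1 and Hmox1 were not among the holders. The matches before the start sites of Gclm and Txnrd1 are shown, in capitals on the plus strand at chr3:122245407-122245447 and chr10:82859098-82859138.
Gclm: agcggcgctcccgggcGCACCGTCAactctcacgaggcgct
Txnrd1: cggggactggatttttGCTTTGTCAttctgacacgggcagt

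Metallothioneins and zinc transporters mostly stayed under 2-fold. None of 14 tested members rose and 1 fell: Slc30a1, the zinc exporter of the plasma membrane, went from 26.3, 22.9, 22.3 and 19.9 CPM to 9.07, 9.88, 10.4 and 11.1 CPM (log2 fold change -1.17, SE 0.12, adjusted p = 8.51e-09). Mt1, the metallothionein with the most reads, was at 471 to 523 CPM and then at 298 to 342 CPM (-0.63), and Slc39a14, a zinc importer, had 0.55.

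The transcription factors and feedback genes of the ISR and the unfolded protein response showed an increase in 10 of 19 tested members and none fell, with a median log2 fold change of 1.02. Ddit3, the CHOP gene, went from 13.04, 12.4, 12.6 and 10.8 CPM to 31.9, 39.2, 35.4 and 46.0 CPM (log2 fold change 1.64, SE 0.12, adjusted p = 2.01e-11). Ppp1r15a, whose product GADD34 leads a phosphatase back to eIF2α, went from 24.4, 18.5, 19.6 and 17.6 CPM to 46.2, 42.8, 45.1 and 51.8 CPM (1.22 on the log2 scale). Trib3, a pseudokinase that restrains ATF4 and AKT, went from 55.0, 43.3, 45.7 and 36.0 CPM to 93.0, 104, 97.4 and 117 CPM (1.19). None of the 3 had overlapping groups. Chac1, which breaks down glutathione, was at 27.1, 21.7, 16.4 and 17.1 CPM and then at 36.4, 39.3, 47.4 and 43.3 CPM (1.02), and fell just short of 2-fold, at 0.93 to 0.95, without vehicle replicate 3 or 4 or bortezomib replicate 3. Atf3, a stress-inducible factor, stood low at 2.57, 1.81, 2.07 and 1.55 CPM and reached 4.23, 5.40, 4.13 and 6.60 CPM (1.36), and Nupr1, a small chromatin-associated stress protein, had 1.41. Sesn2, a leucine-sensing inhibitor of mTORC1, had 2.04 (27.0 to 34.4 CPM to 116 to 136 CPM), and Ddit4 (REDD1), another mTORC1 inhibitor, 2.56 (12.9 to 19.2 CPM to 95.0 to 97.6 CPM). Gadd45a (1.78) and Xbp1 completed the list of those that rose.

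The upstream members stayed under 2-fold at the mRNA level. Atf4 was at 772, 749, 708 and 696 CPM under vehicle and 743, 719, 729.6 and 725 CPM under bortezomib, with overlapping groups and a log2 fold change of -0.0041 (SE 0.042, adjusted p = 0.94). Atf5 was at 45.6 to 49.8 CPM and 38.1 to 44.7 CPM, slightly lower with groups that did not overlap, -0.16 on the log2 scale. Creb3l2, an ER-anchored factor, lay lowest at -0.93, and at -1.04, past 2-fold, without bortezomib replicate 1. Of 13 genes of eIF2α kinases, eIF2 and eIF2B none passed 2-fold, and Eif2ak3 (PERK) was highest at 0.54, Eif2b1 lowest at -0.26 and Eif2s2, eIF2β, received the most reads (0.21). Eif2s1, whose reads can come from the transgene and from what is left of the endogenous transcript, was slightly lower. It was at 299, 314, 312 and 314 CPM and 287, 282, 291 and 286 CPM (-0.11), and its groups did not overlap. The amino acid genes that ATF4 is known to control stayed under 2-fold. None of 27 amino acid synthesis enzymes and transporters rose or fell past it, although 18 were higher by the adjusted p alone. The glycine transporter Slc6a9 was highest at 0.95, Shmt1 lowest at -0.26, the asparagine synthetase Asns had 0.35 (577 to 615 CPM to 720.4 to 773 CPM) and Psat1, of serine synthesis, 0.33. Of 20 aminoacyl-tRNA synthetases, 17 were higher by the adjusted p alone and none passed 2-fold, with Qars at 0.64, Nars at 0.45 and Rars at -0.035. The medians of the last 2 lists were 0.30 and 0.25. With library sizes alone they were 0.149 and 0.0928. By the adjusted p alone, 13 and 11 members were then higher, and 4 and 3 lower.

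Promoter stretches of Atf3, Chac1 and Nupr1 are given because these 3 of the 17 tested ISR list members with a window held TGATGCAA or its complement TTGCATCA, the composite site of C/EBP and ATF4 factors. With Polk they were the 4 genes that rose and held it (2.17% of 184), against 0.752% of genes that fell and 0.701% of all. Atf3 and Nupr1 are on the minus strand, at chr1:191183420-191183459 and chr7:126625557-126625596, and Chac1 is on the plus strand, at chr2:119351033-119351072. The match is in capitals.
Atf3: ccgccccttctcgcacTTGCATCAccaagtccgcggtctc
Chac1: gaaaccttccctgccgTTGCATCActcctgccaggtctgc
Nupr1: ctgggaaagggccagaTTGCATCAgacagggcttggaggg
A cAMP response element, TGACGTCA, stood in 4.35% of the genes that rose, 4.14% of those that fell and 3.83% of all. Zfand2a, Btg2 and Ppp1r15a were among the first. The metal response element core, TGCNCNC, was in 67.9%, 65.8% and 63.9%. A match here is a string of letters in a window, not a bound site.

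Genes known as p53 targets and stress effectors included several of the largest increases. Of 29 tested, 12 rose and none fell, and the median was 0.90. Some members, such as Sesn2, Ddit4 and Gadd45a, also answer to the ISR and were counted in both lists. Trp53inp1, a p53-induced nuclear protein with a role in autophagy and death, went from 11.4, 11.7, 11.02 and 12.4 CPM to 128, 134, 122 and 117 CPM, 10.7-fold (log2 fold change 3.43, SE 0.066, adjusted p = 1.53e-22). Cdkn1a, the cell cycle inhibitor p21, went from 23.1, 24.4, 21.6 and 29.8 CPM to 164, 149.6, 142 and 149.7 CPM (log2 fold change 2.61, SE 0.075, adjusted p = 5.42e-19). Mdm2, the ubiquitin ligase that p53 induces against itself, went from 115, 104, 108 and 116 CPM to 539, 515, 469 and 496 CPM (2.19 on the log2 scale). In these 3 genes no treated library approached a control. Btg2, an antiproliferative deadenylase cofactor, had 2.99, and Gdf15, a secreted stress cytokine, rose from 0.403, 0.464, 0.367 and 0.419 CPM to 4.23, 6.02, 3.596 and 3.84 CPM (3.40). The death receptor genes Fas (2.34), Tnfrsf10b (1.75) and Eda2r (1.74) rose as well. Polk, a translesion DNA polymerase, had 2.32 (17.6 to 20.3 CPM to 88.4 to 99.3 CPM). Trp53 itself was at 62.1 to 68.1 CPM and 68.0 to 74.4 CPM (0.13), with overlapping groups, and Ccng1, with the most reads of the list, had 0.90. Gadd45b was lowest at -0.91.

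Mir34a, the gene of a microRNA that p53 is known to induce, showed 0.101, 0.418, 0.367 and 0.251 CPM and then 2.02, 2.02, 2.82 and 1.59 CPM (log2 fold change 2.86, SE 0.30, adjusted p = 1.57e-08). The libraries measured longer RNA, so these reads are of the precursor region and not of the mature microRNA. Its mature form is shown for reference, from RefSeq at chr4:150068473-150068494 on the plus strand, with the seed, bases 2 to 8, in capitals.
mmu-miR-34a-5p: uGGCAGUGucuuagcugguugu

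Among 14 tested genes of the BCL2 family, 2 rose and 1 fell. Pmaip1 (NOXA), a BH3-only protein that antagonises MCL1, went from 76.8, 78.2, 84.0 and 78.7 CPM to 377, 374, 359 and 396 CPM (log2 fold change 2.24, SE 0.049, adjusted p = 1.79e-21). Bbc3 (PUMA) went from 2.52, 2.04, 2.07 and 0.963 CPM to 4.84, 4.82, 4.67 and 4.81 CPM (1.35), while Bid, which couples death receptors to mitochondria, fell from 50.8, 50.2, 49.8 and 46.9 CPM to 24.2, 25.7, 24.7 and 21.7 CPM (-1.04, and -0.99 without bortezomib replicate 4). All 3 had groups that did not overlap. Mcl1, the short-lived survival protein, was at 202 to 215 CPM and 227 to 234 CPM (0.15). Of 27 cyclins and CDK inhibitors, Cdkn1a and Cdkn2b (1.08), the p15 gene, rose, and Cdkn2d was lowest at -0.73. Of 32 genes of DNA replication and G1/S, only E2f2 passed the threshold, and it fell (2.60 to 3.42 CPM to 0.729 to 1.54 CPM, -1.37), while Rrm1, a ribonucleotide reductase subunit, had 0.41. None of 30 G2/M genes passed it, between Wee1 at -0.79 and Hmmr at 0.66, with Top2a at 0.41.

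The other genes with the largest increases belonged to no list. Nkx2-9, a homeobox gene, went from 0.906, 0.789, 0.551 and 0.879 CPM to 7.81, 8.24, 6.07 and 7.57 CPM (log2 fold change 3.24, SE 0.17, adjusted p = 6.46e-14). Zfp750, a factor of epidermal differentiation, had 2.81 on the log2 scale, Zfp385a, a zinc finger protein of the p53 network, 2.63, and Mocos, the molybdenum cofactor sulfurase, 2.38. Lpin1 (0.0503 to 0.293 CPM to 0.857 to 1.89 CPM), Asap3 (0.252 to 0.544 to 1.84 to 2.36), Wfikkn1 (0.0837 to 0.403 to 1.11 to 1.65) and Htr2b (0.167 to 0.275 to 1.07 to 1.20) started from a handful of reads, where the fold is imprecise, with log2 fold changes of 3.09, 2.35, 2.36 and 2.34. The rule that named these 4 genes required groups that do not overlap, so the lack of overlap adds no support.

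Among the genes that fell were several regulators of growth factor signaling. In the list of RAS-MAPK feedback genes, which the pathway switches on to restrain itself, 5 of 17 tested fell and none rose, with a median log2 fold change of -0.37. Dusp6, a phosphatase of ERK, went from 107, 104, 109 and 118 CPM to 28.7, 25.8, 23.9 and 34.9 CPM (log2 fold change -1.95, SE 0.10, adjusted p = 3.52e-14). Dusp5, the nuclear ERK phosphatase, went from 46.7, 48.2, 51.8 and 44.8 CPM to 10.9, 12.2, 12.3 and 14.1 CPM (-1.95 on the log2 scale). Spry1, an inhibitor upstream of RAS, went from 9.66, 11.04, 10.5 and 11.1 CPM to 1.87, 1.88, 1.99 and 2.40 CPM (log2 fold change -2.38, SE 0.11, adjusted p = 7.21e-15), and Spry2 from 11.8, 9.28, 10.5 and 9.21 CPM to 3.43, 2.75, 2.92 and 2.87 CPM (-1.77). In these 4 genes each treated library stayed under each control, as in 93.5% of all genes that fell. The fifth was Errfi1, the inhibitor of the EGF receptor, at -1.07. Mapk6 (-0.0032) and Rasa2 (0.44), a GTPase activator of RAS, stayed under 2-fold. Hras, the oncogene of the line, was at 223 to 237 CPM and 186 to 189.7 CPM (-0.30).

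Among the EGF receptor family and its ligands 3 of 13 fell and none rose (median -0.52). These were Lrig1, a receptor antagonist that marks quiescent epidermal stem cells (47.3, 50.96, 51.3 and 50.6 CPM to 19.8, 19.1, 20.5 and 21.2 CPM, -1.31), the ligand Hbegf (44.2, 39.96, 38.1 and 35.7 CPM to 19.7, 15.7, 18.7 and 18.1 CPM, -1.13) and the ligand Egf, which was near the detection limit and overlapped between groups (-1.06, and -0.85 to -0.98, not called, without vehicle replicate 2 or bortezomib replicate 1 or 2). Areg, another ligand, was highest at 0.65, and Nrg1, with the most reads, had -0.60. Of 28 AP-1 and immediate early factors listed with Myc, 2 rose and 3 fell. Myc went from 100.5, 88.5, 92.7 and 82.6 CPM to 19.8, 19.8, 21.3 and 23.8 CPM (log2 fold change -2.10, SE 0.07, adjusted p = 8.22e-18). Klf10, an early TGF-β-induced factor, had -1.37, and Egr1, at 0.696 to 1.06 CPM and 0.194 to 0.460 CPM, -1.52. The member that rose beside Atf3 was Jun, which went from 11.8, 10.9, 10.6 and 11.5 CPM to 53.9, 58.2, 49.0 and 57.5 CPM (log2 fold change 2.29, SE 0.15, adjusted p = 5.14e-12). Klf6, with the most reads of the list, had -0.41.

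**Figure D4:**
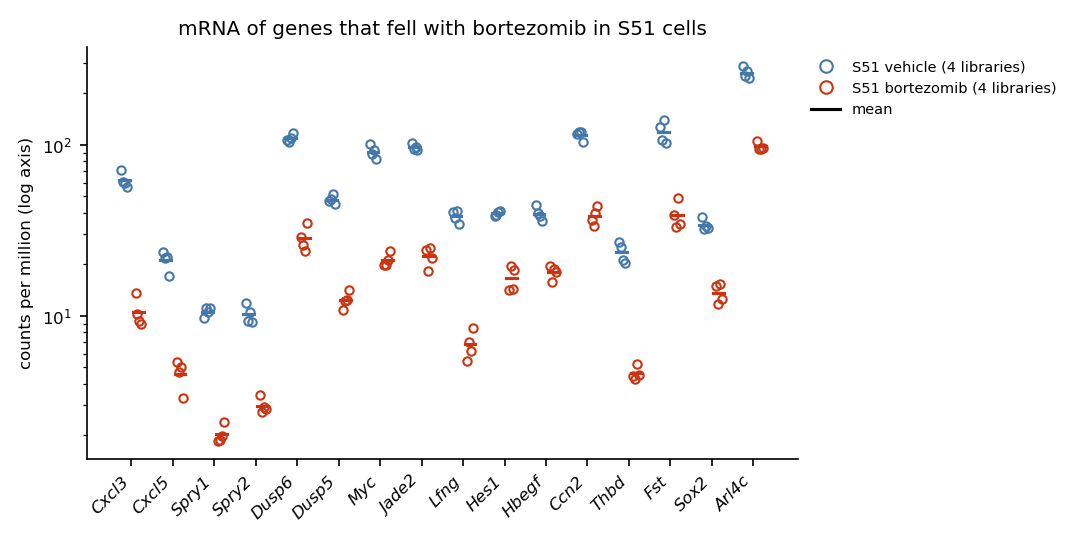
CPM on a log axis for 16 genes that fell in S51 cells, drawn as in the plot of genes that rose. In each gene the highest bortezomib library lies below the lowest vehicle library, from Hbegf, with -1.13 on the log2 scale, to Cxcl3, with -2.56.

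Chemokines that recruit neutrophils were among the largest decreases. Cxcl3 went from 71.0, 60.6, 60.2 and 57.0 CPM to 13.5, 10.3, 9.28 and 8.95 CPM (log2 fold change -2.56, SE 0.13, adjusted p = 4.92e-14), and Cxcl5 from 23.7, 21.8, 22.0 and 17.1 CPM to 5.39, 4.67, 5.01 and 3.33 CPM (-2.19 on the log2 scale). In the list of NF-κB factors and inflammatory chemokines 3 of 28 fell, these 2 and Csf3, a cytokine with overlapping groups at 0.321 to 1.21 CPM and 0.153 to 0.482 CPM that lost its call, at -0.69 to -1.02, without vehicle replicate 1 or 2 or bortezomib replicate 1 or 4. The adhesion molecule gene Icam1 rose from 0.755, 0.835, 0.688 and 1.17 CPM to 1.66, 2.22, 2.77 and 1.79 CPM (1.27). Ptgs2, the inducible cyclooxygenase, had 0.23, and Tslp, with the highest fitted value, was not distinguished from 0 at 0.0512 to 0.146 CPM (adjusted p = 0.24). Ackr3, a scavenging chemokine receptor, was 4.06-fold lower (11.6, 11.6, 10.9 and 9.33 CPM to 2.02, 2.41, 3.50 and 2.71 CPM).

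Notch signaling genes moved in both directions. Notch1, the receptor, rose from 137, 129, 115 and 127 CPM to 379.6, 342, 324 and 309 CPM (log2 fold change 1.42, SE 0.059, adjusted p = 6.18e-16). Lfng, the glycosyltransferase that tunes which ligand Notch answers to, fell from 40.5, 37.2, 40.9 and 34.5 CPM to 5.44, 6.99, 6.22 and 8.54 CPM (log2 fold change -2.49, SE 0.11, adjusted p = 1.13e-15). Hes1, a direct target gene, fell from 38.4, 38.8, 40.7 and 41.0 CPM to 14.2, 19.6, 14.3 and 18.6 CPM (-1.25 on the log2 scale). No group overlapped in these 3, and the other 13 of 16 members did neither, the ligand gene Jag2 at -0.37 among them. Of 31 TGF-β and BMP genes, 3 fell, all of the activin arm: the activin subunits Inhba (-1.23) and Inhbb (-1.13) and the activin antagonist Fst, at 126, 107, 139 and 103 CPM and then 39.1, 32.9, 48.6 and 34.4 CPM (-1.61). Tgfbr2, floxed by the labels and deleted by the study's account, was at 272 to 302 CPM and 193 to 214 CPM (-0.48), and counts per gene do not tell an intact transcript from one of a deleted allele. Tgfbr3 was highest at 0.60. None of 19 Wnt genes passed the threshold, between Wnt4 at -0.59 and Fzd5 at 0.77, with Ctnnb1 at 0.33.

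Of 16 listed YAP/TAZ targets and regulators 3 fell and none rose. Ccn2 (CTGF), a matricellular protein, went from 116, 119, 118 and 104 CPM to 36.5, 33.4, 39.8 and 44.1 CPM (log2 fold change -1.57, SE 0.10, adjusted p = 8.66e-13), F3, tissue factor, had -1.38, and Arrdc3, an arrestin-like adaptor, -1.64. Lats1, a regulator and not a target, was highest at 0.22 and Axl, with the most reads, had -0.12 with overlapping groups. Among 35 genes of epidermal identity 3 fell: the stem cell factor Sox2 (37.7, 32.3, 33.7 and 32.4 CPM to 15.02, 11.8, 15.3 and 12.6 CPM, -1.32) and the cornified envelope genes Ivl (-1.23) and Tgm1 (-1.31). Dsp, desmoplakin, was highest at 0.97, just under 2-fold. Trp63, the master factor of the lineage, was at 331 to 352 CPM and 166 to 191 CPM (-0.92), and Perp had 0.081. None of 16 keratins passed 2-fold, between Krt80 at -0.68 and Krt16 at 0.84, with Krt14 at 0.46. Of 31 integrin and focal adhesion genes Itgb6, which activates TGF-β (58.2 to 66.6 CPM to 24.3 to 27.2 CPM, -1.25), and Fermt1, kindlin-1 (-1.02, and -0.951 to -0.997, not called, without vehicle replicate 3 or bortezomib replicate 2 or 4), fell, while Itga5 had 0.99 (1.02 to 1.14, called, without vehicle replicate 1 or 2 or bortezomib replicate 2) and Itgb1 0.17.

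Metabolic and clock genes changed in few members. Pik3ip1, a brake on PI3K, fell from 12.8, 11.8, 10.1 and 11.2 CPM to 2.62, 2.84, 2.92 and 3.17 CPM (-1.98 on the log2 scale), against Ddit4 and Sesn2, which rose, in a list of 28 PI3K-AKT and mTORC1 regulators. Of 15 circadian factors, Dbp (-1.28) and Per1 (-1.07, and -0.989 and -0.996 without vehicle replicate 1 or bortezomib replicate 3) fell and none rose, with Tef highest at 0.46 and Clock at -0.13. Of 28 hypoxia and glycolysis genes, Ankrd37 (-1.30), Pfkfb3 (-1.05) and Egln3 (-1.05, and -0.99 without bortezomib replicate 3) fell and Epas1, under 1 CPM, rose (1.07, and 0.91 and 0.94 without vehicle replicate 3 or bortezomib replicate 1), while Pkm, with the most reads, had 0.49. Insig1, the sterol sensor that holds SREBP in the ER, rose (24.3, 26.9, 28.2 and 30.1 CPM to 54.9, 54.7, 65.0 and 59.5 CPM, 1.10) as the only one of 30 cholesterol genes to pass, and the others ran from Dhcr7 at -0.47; Scap had 0.057.

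Several lists had no member past 2-fold. The 14 tubulins ran from Tubd1 at -0.35 to Tubb2a at 0.86, with Tubb5, of the most reads, at 0.48, and the 47 centrosome and centriole genes from Cep78 at -0.83 to Cep76 at 0.40, with Cep55 at -0.26. The 18 CLK kinases and SR splicing factors lay between Srsf7 at -0.42 and Clk3 at 0.50, and Srsf1 had -0.043. The 80 ribosomal protein genes had a median of 0.13 that turned to -0.025 with library sizes alone, between Rpl7l1 at -0.25 and Rpl3 at 0.60, with Rplp0 at 0.041.

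Other large decreases belonged to no list. Thbd, thrombomodulin, went from 27.1, 25.2, 21.3 and 20.4 CPM to 4.44, 4.29, 5.25 and 4.502 CPM (log2 fold change -2.34, SE 0.14, adjusted p = 2.74e-13). Jade2, a subunit of a histone acetyltransferase complex, went from 102, 94.7, 97.0 and 93.0 CPM to 24.2, 18.4, 24.9 and 21.8 CPM (-2.11), and Pde4b, a cAMP phosphodiesterase, from 25.6, 19.9, 22.4 and 20.4 CPM to 5.596, 5.40, 4.86 and 6.86 CPM (-1.96). Each had groups far apart, and the rule that named them required groups that do not overlap. Angptl4, a lipoprotein lipase inhibitor, had -2.12, and Rnf39 -2.06. The uncharacterised transcripts 1700096K18Rik (-2.35), Gm20735 (-2.26), Gm19589 (-2.12) and 4632404H12Rik (-2.07), the potassium channel gene Kcna4 (-2.03) and the vomeronasal receptor gene Vmn1r44 (-1.997) stood at most at 2.64 CPM in any vehicle library. The genes that fell with the most reads did so by smaller folds. Arl4c, a small GTPase of the membrane, went from 290.0, 250.98, 270.4 and 247 CPM to 106, 94.9, 94.1 and 96.4 CPM (-1.43). Zfp36l2, an mRNA decay factor, went from 312, 233, 254 and 240.1 CPM to 121, 103, 91.2 and 91.1 CPM (-1.36). Iffo2 had -1.14, Prss23 -1.22, Dhrs9 -1.01 (under 2-fold without bortezomib replicate 2 or vehicle replicate 4), the mucin-type glycosyltransferase Gcnt3 -1.69 and the basal keratinocyte factor Bnc1 -1.20.

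The called genes were also described by span, level and type, of which level enters the filter and the test. The median gene span in RefSeq was 9.99 kb for genes that fell, 16.2 kb for genes that rose and 22.6 kb for all tested. The median level under vehicle was 5.30, 4.19 and 27.4 CPM in the same order. Shorter span and lower level were thus shared by both called sets. Long noncoding RNAs were 11.3% of the genes that fell (40 genes), 4.35% of those that rose (10) and 3.01% of all. Genes with a symbol of Zfp and a number, mostly zinc finger proteins, were 6.5% of those that fell (23), 2.61% of those that rose (6) and 2.76% of all. The part of level in these shares was not tested. Total RNA in bulk cannot tell less RNA per cell from fewer cells that hold it, and synthesis and decay of an mRNA cannot be told apart.

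The same contrast in S51A cells, whose eIF2α cannot be phosphorylated, shows which of these changes differed between the lines. The 2 lines were grown from separate clones, so effects of the allele and of the clone cannot be told apart. In S51A cells 191 genes rose (1.63%) and 298 fell (2.55%) by the same rule. Both lines called 135 genes higher, which is 58.7% of the S51 list and 70.7% of the S51A list, and 180 lower, which is 50.8% and 60.4%. Of the 230 genes that rose in S51 cells 14 had a fitted change below 0 in S51A cells, and of the 354 that fell 8 had one above 0. The difference between the 2 responses was tested directly, and 56 of all genes (0.478%) had an adjusted p under 0.05 and a difference above 1 on the log2 scale. Among the genes that rose in S51 cells 15 did (6.52%), and among those that fell 11 (3.11%). The rule used the same S51 libraries for both criteria, so a larger share than 0.478% among called genes is partly fixed by that choice.

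The genes of the ISR were prominent among the differences. Ddit3, Trib3, Chac1, Atf3 and Gadd45a, 5 of the 10 ISR list members that rose, had a larger change in S51 cells by more than 2-fold. Chac1 was at 24.5 ± 4.93 CPM (SD, n = 4) in S51A vehicle libraries and 14.6 ± 3.50 CPM in S51A bortezomib libraries, and the 2 log2 fold changes differed by 1.77 (SE 0.22, adjusted p = 5.11e-06). Gadd45a was at 6.31 ± 1.17 CPM and 6.55 ± 1.42 CPM there, a difference of 1.72 (SE 0.21, adjusted p = 4.26e-06). For both genes the S51A response was near or below 0. Atf3 differed by 1.58, Trib3 by 1.14 and Ddit3 by 1.07 on the log2 scale (adjusted p = 1.66e-04, 3.20e-05 and 1.42e-04), and Ddit3 came to 0.97 without bortezomib replicate 4 of S51, vehicle replicate 4 of S51A or bortezomib replicate 1 of S51A. The whole ISR list had a median log2 fold change of 1.02 in S51 cells and 0.10 in S51A cells, the amino acid list 0.30 and 0.022, and the tRNA synthetases 0.25 and 0.046. For the HSP70 list the 2 medians were 0.68 and 0.56, for the proteasome 0.49 and 0.53, and for the p53 list 0.90 and 0.96. Differences between list medians were not tested.

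Outside the ISR list, Zfp750 rose more in S51 cells (1.06, adjusted p = 7.05e-04, and 0.92 to 0.998, under 2-fold, without vehicle replicate 3 or 4 or bortezomib replicate 1 of S51 or vehicle replicate 2 of S51A) and Ccn2 fell more (-1.25, adjusted p = 3.92e-07). Sqstm1 rose in both lines, at 199.9 ± 12.97 CPM and 830.1 ± 43.4 CPM (SD, n = 4) in S51 cells and 255 ± 25.6 CPM and 674 ± 45.2 CPM in S51A cells, and the difference of 0.65 (SE 0.084, adjusted p = 7.98e-06) was under 2-fold. The chaperone genes Hspa1a (0.16), Hspa8 (-0.067) and Dnajb1 (-0.20) did not pass the test of the difference (adjusted p = 0.64, 0.76 and 0.15), nor did Atf4 (-0.10, SE 0.06, adjusted p = 0.25). The other genes named by the rule for differences stood near the detection limit in at least one line: Trpc1 (2.66), Ccdc24 (2.28) and Megf11 (2.27) with a larger value in S51 cells, and Aspa (-3.46), 9930012K11Rik (-2.66), Gm4890 (-1.496), Tie1 (-1.41) and 6330415G19Rik (-1.37) with a smaller one. All but Trpc1 and 9930012K11Rik lost the call without at least one library. Aspa was at 0.0125 ± 0.0251 CPM under vehicle and 0.0848 ± 0.0619 CPM under bortezomib in S51A cells, so its fitted rise there rests on almost no reads. The rule also picked Kdm5d, whose S51 libraries held at most 2 counts, and no fold is given for it.

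**Figure D5:**
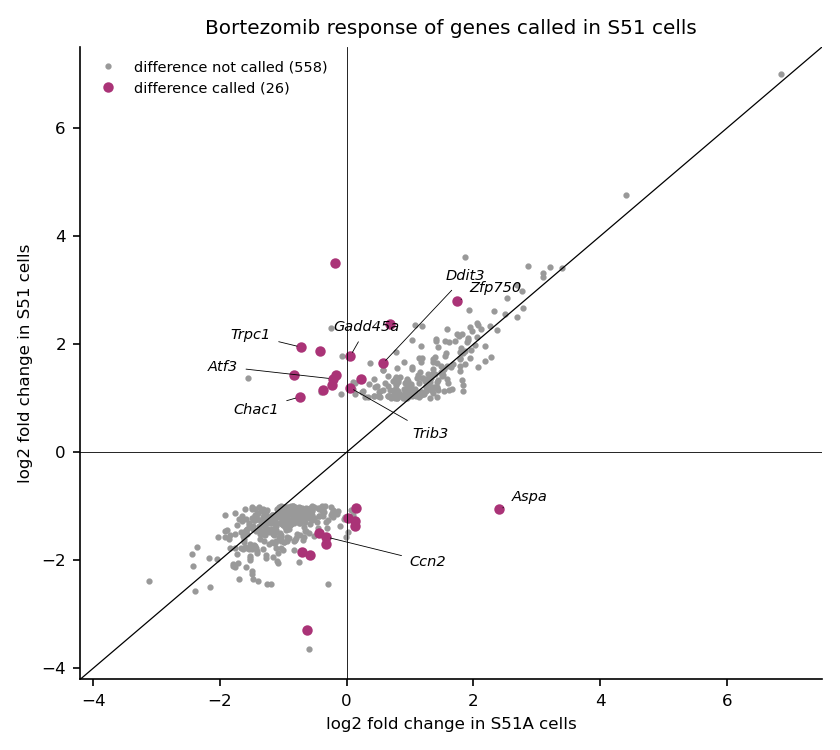
Log2 fold change with bortezomib in S51 cells (y axis) against that in S51A cells (x axis) for the 584 genes called in S51 cells, each dot 1 gene; purple dots are the 26 genes whose difference between the lines was called, and the diagonal marks equal responses. Chac1, Gadd45a, Atf3 and Trib3 lie near 0 or below it on the x axis while above 1 on the y axis.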

How the data were processed

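Total RNA of S51 and S51A cells was sequenced in 16 libraries. The authors removed rRNA reads, aligned the rest to mm10 with Bowtie2, masked repeats, kept uniquely mapped reads, merged sequencing runs and deposited raw counts per gene. The processing notes name featureCounts and the study's methods name plastid as the counter, and versions are not given in the sources used here. Ribosome profiling counts were not used here. Genes with shared or overlapping sequence may be miscounted.

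The analysis used edgeR 4.0.16 in R 4.3.3. Genes were kept by filterByExpr (minimum count 10, minimum total 15), library sizes were scaled by TMM, and 1 quasi-likelihood model with a coefficient per group was fitted to all 16 libraries. A gene was called at a Benjamini-Hochberg adjusted p under 0.05, over all 11708 genes tested, and a fold change above 2. CPM values use the scaled library sizes, and each library held 18758668 to 22994713 counts. The difference between S51 and S51A was an interaction contrast in the same model. The procedure was tested on simulated data.

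Members and gene lists were chosen with earlier results of these data known, so lists are given as counts and medians with no test. Genes were named by a rule: the 20 called genes in each direction with the largest change, a mean of at least 1 CPM in the higher group and no overlap between groups; the 8 called genes in each direction with the most reads; in each list the called members, both ends and the member with the most reads; a set of genes known from the pathways; and the 5 largest called differences in each direction. RefSeq annotation (GRCm38.p6) was matched by gene ID for 24569 of 24593 genes. A few genes that met the rule are not reported here. The alternatives tried were RLE factors, library sizes alone, no filter, a replicate block, DESeq2 1.42.0, the 8 S51 libraries alone, other call rules and each library left out in turn.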

Additional observations from a re-analysis of the deposited data

Results flagged for a closer look

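In 19 of 448 groups tested (224 named genes in both S51 groups), 1 library stood apart from the other three by Dixon's criterion, and chance alone gives about 1 in 20 groups. In vehicle libraries replicate 1 was highest for Arrdc3 (37.0 CPM against 34.2 in the others), Krt80 (17.5 against 13.7 to 14.1) and Nfe2l1 (134 against 117 to 119), and lowest for Eif2ak3 (27.0 against 29.9 to 30.3), Eif2s1 (299 against 312 to 314) and Lrig1 (47.3 against 50.6 to 51.3). Vehicle replicate 4 was highest for Aspa (8.33 CPM against 6.10 to 6.34) and Tnfrsf10b (14.98 against 12.5 to 12.9), and lowest for Ccn2 (104 against 116 to 119) and Dbp (1.67 against 2.89 to 3.11). Vehicle replicate 3 was highest for Ufd1 (40.9 CPM against 38.8 to 39.1). In bortezomib libraries replicate 2 was highest for Asap3 (2.36 CPM against 1.84 to 1.92) and Qars (193 against 179 to 180.1), and lowest for Gcnt3 (40.6 against 47.0 to 47.7) and Rars (250.1 against 257 to 258). Bortezomib replicate 1 was lowest for Asns (720.4 CPM against 765 to 773) and Dnajb4 (112 against 118), replicate 3 for Clk3 (46.4 against 48.7 to 48.9), and replicate 4 was highest for Gm4890 (0.665 against 0.194 to 0.252).

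By the test of the difference itself, the response to bortezomib differed between S51 and S51A cells in 15 named genes. The difference of log2 fold changes, S51 minus S51A, was 1.77 for Chac1, 1.72 for Gadd45a, 1.58 for Atf3, 1.14 for Trib3 and 1.07 for Ddit3, all of the ISR list. It was 1.06 for Zfp750 and -1.25 for Ccn2. For genes with few reads in at least one line it was 2.66 for Trpc1, 2.28 for Ccdc24, 2.27 for Megf11, -3.46 for Aspa, -2.66 for 9930012K11Rik, -1.496 for Gm4890, -1.41 for Tie1 and -1.37 for 6330415G19Rik.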

How the results depend on the processing

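Every gene called in S51 cells kept its direction wherever it was called again. RLE factors called 230 of the 230 higher and 343 of the 354 lower genes again, DESeq2 228 and 339, and the S51 libraries alone 204 and 327. Library sizes alone called 161 higher and 578 lower genes, so that 21.8% of calls were higher in place of 39.4%. The adjusted p alone called 7005 genes, 3475 higher and 3530 lower, and a fold limit of 1.5 called 1790, 667 higher and 1123 lower. Leaving out 1 library gave 581 to 610 calls, 224 to 241 higher and 354 to 370 lower.

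The difference between the lines, with 56 calls, 37 larger and 19 smaller in S51 cells, was the less stable count. DESeq2 called 23 (18 and 5), and without a filter 30 were smaller in S51 cells. Leaving out 1 library gave 46 to 72 calls, 31 to 48 larger and 11 to 24 smaller, the lowest of these without S51A vehicle replicate 1. The causes were not tested.

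Pairing by replicate number was weak. Deviations of same-numbered vehicle and bortezomib libraries correlated at 0.104, 0.047, 0.060 and 0.092. Other pairs ran from -0.127 to 0.062. Each bortezomib library correlated best with the vehicle library of its number. Vehicle replicate 2, however, correlated best with bortezomib replicate 4, at 0.062. Whether libraries of the same number share a batch was not tested. With the replicate block the calls were 230 higher and 356 lower. For the difference they were 45 and 23, against 37 and 19 without the block.

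Library sizes alone moved the counts of called members in several lists: NRF2 targets from 9 to 5 higher, HSP90 from 5 to 3, small heat shock proteins from 4 to 2, ER folding from 3 to 1, AP-1 factors from 3 to 6 lower and epidermal genes from 3 to 5 lower. Over the named genes, 3048 values under the alternatives kept direction and call, 51 lost the call, 14 gained it and 16 changed sign, all 16 in genes that were not called. Atf4 came to 0.0049 with RLE factors and 0.0039 with DESeq2, and ran from -0.028 to 0.023 with 1 library left out, above 0 without vehicle replicate 1 or 2 or bortezomib replicate 2. Mapk6 came to 0.0057 and 0.0048, and from -0.034 to 0.019 with 1 library left out, above 0 without vehicle replicate 1 or 3 or bortezomib replicate 2 or 4. With library sizes alone Mcl1 was at -0.0049, Perp at -0.073, Rplp0 at -0.11, Scap at -0.097 and Trp53 at -0.023. Genes under about 1 CPM had too few reads for a precise fold.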
